A study of Mus musculus with 18 samples.

Results

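The pyruvate dehydrogenase complex turns pyruvate into acetyl-CoA in the mitochondrial matrix and so links glycolysis to the citric acid cycle. Pyruvate dehydrogenase kinases phosphorylate its E1 subunit and switch the complex off, and pyruvate dehydrogenase phosphatases remove the phosphate and switch it on. In skeletal muscle, Pdk4 and the uncoupling protein gene Ucp3 are known as genes that respond to fasting and to fatty acids through nuclear receptors of the PPAR family. The 10 genes described here are the kinases Pdk1, Pdk2, Pdk3 and Pdk4, the phosphatase catalytic subunit Pdp1, the complex subunits Pdha1, Pdhb, Dlat and Pdhx, and Ucp3. They were taken by their symbol on the platform, and those described were selected on their detection p-values, which had to be under 0.05 on at least 3 of 17 arrays. Of the 10 genes, 9 met this, among 11233 genes tested in all.

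Total RNA of the tibialis anterior, which lifts the foot, was hybridised to 18 Illumina bead arrays, 3 per group. The mice were 2 months old and belonged to 3 strains, labelled A/J-MyD88 deficient, A/J and A/JOlaHsd. Single-stranded RNA (ssRNA), which the endosomal Toll-like receptor TLR7 recognises, was injected 3 times within 10 days into the muscle of one side, with 3 days of recovery in between, and saline into that of the other side. A/J-MyD88 deficient mice are labelled as lacking both dysferlin, which reseals torn muscle fibre membranes, and MyD88, the adaptor of most Toll-like receptors. For A/J the labels give dysferlin deficiency alone, and for A/JOlaHsd a wild-type genotype with dysferlin present. Both dysferlin-deficient strains therefore carry the dysferlin defect in saline legs as well as in ssRNA legs, and all legs had been injected. The labels do not say whether the arrays of a group came from separate animals, so the p-values measure the spread between these arrays, which may be technical.

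One A/JOlaHsd ssRNA array, number 2, held no signal (mean -0.33), and that group had 2 arrays in what follows. Mean signal per array was 98.1 to 140.3 in A/J-MyD88 deficient muscle, 120.5 to 147.3 in A/J muscle and 37.4 to 50.2 in A/JOlaHsd muscle. Strain and signal level cannot be told apart between A/JOlaHsd and the other strains. Dysf, the dysferlin gene, had a mean log2 signal of 6.15 ± 0.26 in A/J-MyD88 deficient, 6.13 ± 0.08 in A/J and 9.60 ± 0.16 in A/JOlaHsd saline legs (SD, n = 3 each), the order the labels give. The positions of the Myd88 probes are not given, so these arrays do not test the Myd88 allele. The 12 fast fibre markers tested, among them Tnnt3, Atp2a1 and Actn3, summed to a linear signal of 99219.6 to 107541 over the A/J-MyD88 deficient arrays and 99787.1 to 106030 over the A/J arrays, and none of the 12 was called between ssRNA and saline legs of A/J.

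Of the 9 genes kept, Pdk3 was detected on the fewest arrays, 13 of 17. It was detected on all 12 arrays of A/J-MyD88 deficient and A/J muscle, on 1 of 2 A/JOlaHsd ssRNA arrays and on 0 of 3 A/JOlaHsd saline arrays. Pdhx, the E3-binding subunit of the complex, and the second probe of Pdk1 did not meet the rule, both being detected on 0 of 17 arrays. Pdhx is not described further. The other members were detected on 16 or 17 arrays with each probe kept. Of the 15 probes of all 10 members, 13 were kept. Where a gene had several probes, the probe with the highest mean stood for the gene.

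In A/J muscle, ssRNA legs had less Pdk2 and Dlat RNA and more Pdk3 RNA than saline legs, and 22.4% of all genes were called there. No member was called in A/J-MyD88 deficient or A/JOlaHsd muscle, where 0% and 1.9% of all genes were called. Between A/J-MyD88 deficient and A/J muscle, the difference of the responses was called for Pdk2 and not for Dlat or Pdk3. That Pdk2 call was lost in 6 of 12 fits that left out 1 array. Pdk2, the kinase isoform found in most tissues, was 2.94-fold lower in A/J ssRNA legs. In ssRNA legs, Pdk2, Pdk4 and Ucp3 were each over 2.5-fold higher in A/J-MyD88 deficient muscle than in A/J muscle. Values below are log2 normalized signals unless stated, ± beside a difference is its standard error, and a gene was called at an adjusted p under 0.05 in limma with Benjamini-Hochberg adjustment over all genes.

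**Figure D1:**
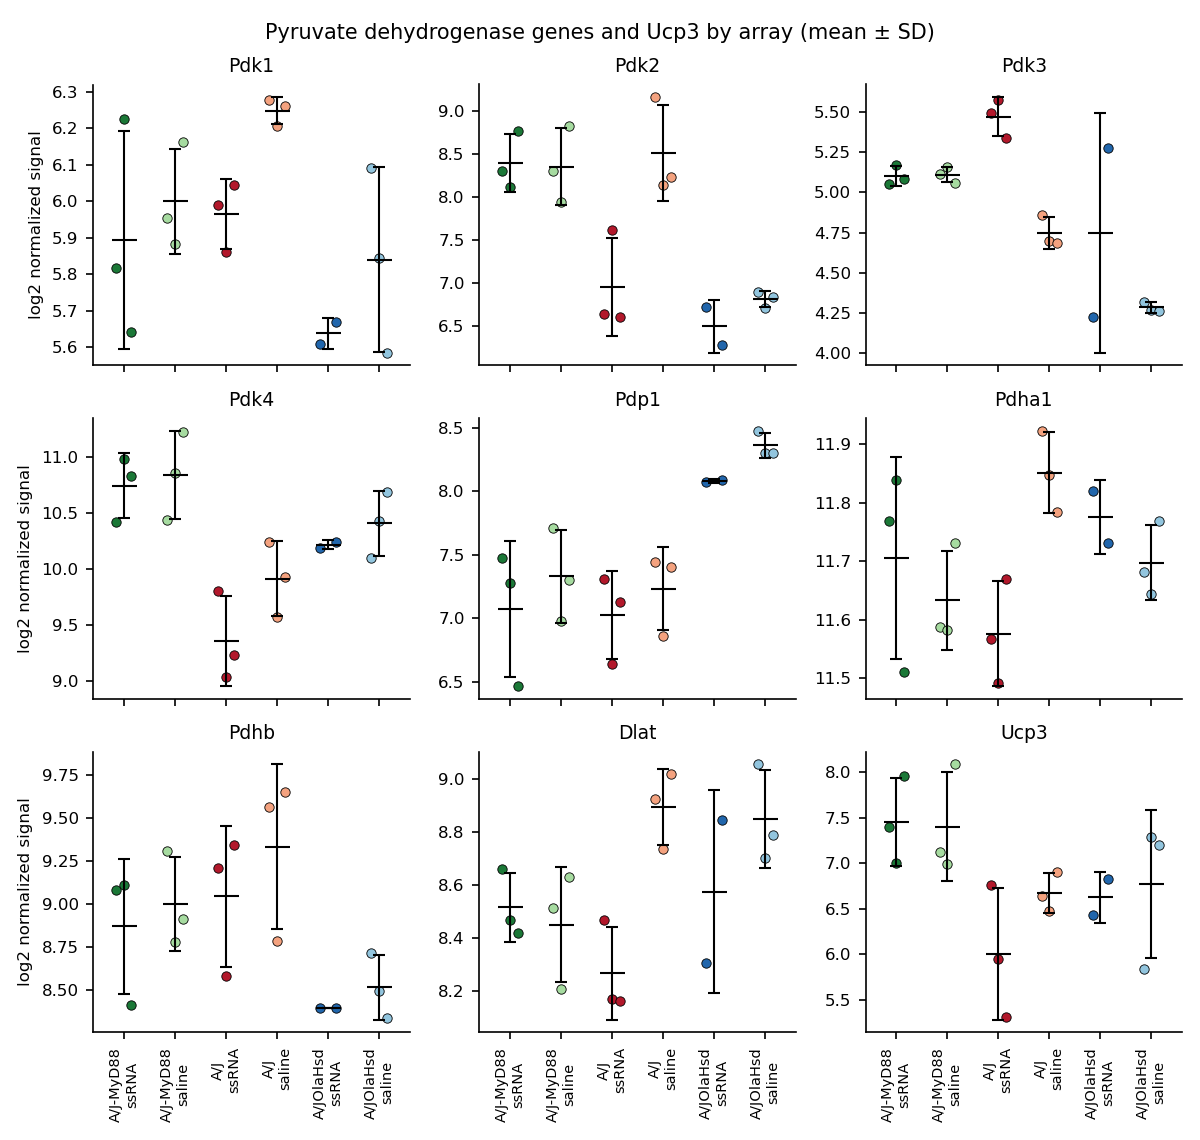
Log2 normalized signal of the 9 detected members on each array (points) in the 6 groups of strain and injection, with the mean and SD of each group (bars); vertical axes differ between panels. The A/J ssRNA arrays lay below all A/J saline arrays for Pdk2 and Dlat and above them for Pdk3.

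Of the kinases, Pdk2 had the largest change. Its signal was 6.64, 7.62 and 6.61 in A/J ssRNA legs, against 9.16, 8.15 and 8.24 in A/J saline legs. All 3 ssRNA arrays lay below all 3 saline arrays, and the middle ssRNA value lay closest to the saline legs. The log2 difference was -1.56 ± 0.30 (95% interval -2.20 to -0.91, adjusted p = 0.00162, limma). Of all genes, 22.4% were called in this comparison, 12.4% higher and 10% lower, and of the 9 members 1 was called higher and 2 were called lower. With median centring of each array in place of quantile normalization, 2486 genes were called higher and 345 lower, against 1394 and 1124. Pdk2 stayed called at -1.34 (adjusted p = 0.00218) and Pdk3 at 1.05 (adjusted p = 1.7e-05). The arrays did not overlap for 44.7% of all genes, 20.6% higher and 24.1% lower, and for 5 of the members, 1 higher and 4 lower. The median log2 difference was -0.29 over the 9 members and -0.05 over all genes.

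Pdk2 in A/J-MyD88 deficient mice was 8.30, 8.11 and 8.78 in ssRNA legs, against 8.31, 7.94 and 8.82 in saline legs. The ssRNA values lay within the range of the saline values, and the difference was 0.04 ± 0.30 (95% interval -0.60 to 0.68). In A/JOlaHsd mice Pdk2 was 6.72 and 6.28 in ssRNA legs and 6.90, 6.71 and 6.84 in saline legs, with a difference of -0.32 ± 0.34 (adjusted p = 0.762). The A/JOlaHsd legs overlapped. The response of A/J-MyD88 deficient muscle minus that of A/J muscle was 1.60 ± 0.43 for Pdk2 (95% interval 0.69 to 2.51, adjusted p = 0.0264, limma), in a comparison in which 10.2% of all genes were called, 375 positive (3.34%) and 769 negative (83 and 1681 with median centring). Pdk2 was the member called there, and the call was lost without any 1 of 6 arrays, with adjusted p-values of 0.0590 to 0.0842. Those were A/J saline array 1, A/J ssRNA arrays 1 and 3, A/J-MyD88 deficient saline arrays 1 and 2, and A/J-MyD88 deficient ssRNA array 3. It was also lost without the filter on dim probes (adjusted p = 0.0649). The response of A/J minus that of A/JOlaHsd was -1.24 ± 0.46 for Pdk2 (adjusted p = 0.105) and was not called, with 7.57% of all genes called, 554 positive and 296 negative (1742 and 12 with median centring). Without A/J ssRNA array 2 it was -1.57 (adjusted p = 0.0443).

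**Figure D2:**
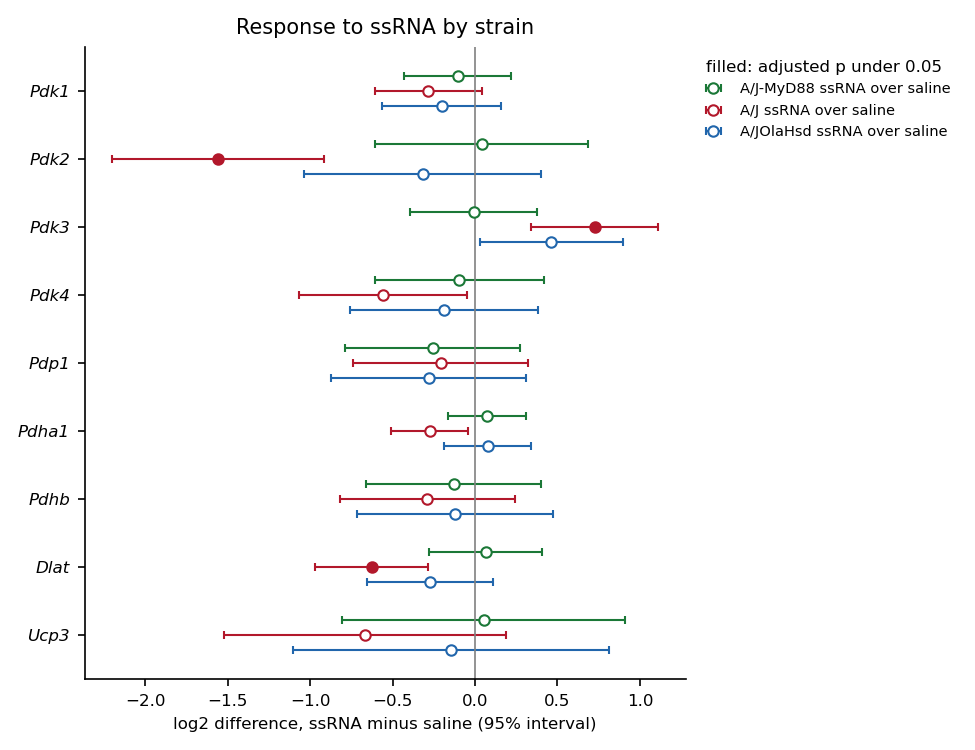
Log2 difference of ssRNA over saline legs for each member (points) with its 95% interval (bars) in A/J-MyD88 deficient, A/J and A/JOlaHsd muscle; filled points were called. Pdk2 and Dlat (lower) and Pdk3 (higher) were called in A/J, where 22.4% of all genes were called. No member was called in A/J-MyD88 deficient or A/JOlaHsd muscle, where 0% and 1.9% of all genes were called. Pdk3 was not above background in A/JOlaHsd saline legs, so its A/JOlaHsd point is not a measured difference.

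The ssRNA legs of both dysferlin-deficient strains were also compared directly. Pdk2 there was 1.44 ± 0.30 higher in A/J-MyD88 deficient muscle than in A/J muscle on the log2 scale, 2.71-fold (adjusted p = 0.0133, limma). Without A/J ssRNA array 1 or 3, or without A/J-MyD88 deficient ssRNA array 3, the adjusted p was 0.0638, 0.0783 and 0.0624. The saline legs overlapped between these strains, with a Pdk2 difference of -0.16 ± 0.30 (95% interval -0.80 to 0.49, adjusted p = 0.867). These comparisons share arrays with the comparison of legs in A/J and are not independent of it. By Pearson correlation over the 12 arrays of A/J-MyD88 deficient and A/J muscle, which share their strains and injections, the genes with the pattern most like Pdk2 were Akap9 (0.96), Scrn2 (0.95), Tada2a (0.94), Slc25a42 (0.94) and Cd300lg (0.93).

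Pdk3, a kinase isoform of narrower tissue range, moved the other way. Its signal was 5.50, 5.58 and 5.34 in A/J ssRNA legs, against 4.86, 4.70 and 4.68 in A/J saline legs. The legs did not overlap, and the difference was 0.72 ± 0.18, 1.65-fold (adjusted p = 0.00914, limma). The A/J saline arrays lay near background, with signals before normalization of 17.2, 9.9 and 10.9 (detection p of 0.00214, 0.0235 and 0.0246). At that level the offset of 16 weighs on the fold, so its size is uncertain. In A/J-MyD88 deficient mice the 6 arrays lay between 5.05 and 5.17, with a difference of -0.01 ± 0.18. They lay above all A/J saline arrays and below all A/J ssRNA arrays, and neither difference was called (0.36 ± 0.18 in saline legs, adjusted p = 0.325, and -0.37 ± 0.18 in ssRNA legs, adjusted p = 0.257). With median centring both were called, at 0.52 (adjusted p = 0.0211) and -0.60 (adjusted p = 0.00809). The saline difference was also called with the compared arrays alone (adjusted p = 0.0473) and the ssRNA difference with array weights (adjusted p = 0.0424). The response of A/J-MyD88 deficient muscle minus that of A/J muscle was -0.73 ± 0.26 (adjusted p = 0.0846). It was called, at -0.67 to -1.12, with each strain normalized alone, with median centring, with the authors' normalized values, with the compared arrays alone and with array weights.

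In A/JOlaHsd muscle Pdk3 was 4.22 and 5.27 in ssRNA legs, against 4.32, 4.27 and 4.26 in saline legs. One ssRNA array was above the saline arrays and the other below them, and only the higher of them was detected. Since Pdk3 was not above background on any A/JOlaHsd saline array, and the ssRNA mean of 4.75 lay below the lowest detected signal of the saline arrays (mean 4.79), no difference or fold is given there.

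Pdk4, the kinase isoform that fasting induces in muscle, was 9.80, 9.03 and 9.23 in A/J ssRNA legs, against 10.24, 9.57 and 9.93 in A/J saline legs. The highest ssRNA array overlapped the lowest saline array. The difference was -0.56 ± 0.24 (adjusted p = 0.111, limma) and was not called. With the replicate number as a block, which pairs the legs, the same difference of -0.56 was called (adjusted p = 0.0204). It was also called without A/J ssRNA array 1, at -0.78 (adjusted p = 0.0409), and with array weights, at -0.72 (adjusted p = 0.0131).

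Pdk4 differed between the dysferlin-deficient strains in both legs. In ssRNA legs it was 10.42, 10.98 and 10.83 in A/J-MyD88 deficient muscle, above all 3 A/J values, with a difference of 1.39 ± 0.24, 2.62-fold (adjusted p = 0.00442, limma). In this comparison 5.66% of all genes were called, 297 higher and 339 lower (89 and 1158 with median centring), so that 2.64% were called higher, and 3 of the 9 members were called higher and none lower. The arrays did not overlap for 34.7% of all genes, 20% higher. In saline legs Pdk4 was 10.44, 10.86 and 11.23 in A/J-MyD88 deficient muscle, again above all 3 A/J values. That difference was 0.93 ± 0.24, 1.90-fold (adjusted p = 0.0331). With the brightest probe of each gene, Pdk4 was the 1 member called there, where 5.38% of all genes were called, 4.39% higher. The saline call was lost without A/J saline array 2 (0.75, adjusted p = 0.121) or 3 (0.93, adjusted p = 0.110), and without A/J-MyD88 deficient saline array 2 (0.92, adjusted p = 0.138) or 3 (0.73, adjusted p = 0.137), and without the filter on dim probes (adjusted p = 0.0799). Slow fibre markers differed in sum in both comparisons, and 2 of the 8 were called in ssRNA legs and 1 in saline legs. Their summed linear signal over the 8 tested was 3352.69 to 4469.14 in A/J-MyD88 deficient and 1718.43 to 3244.95 in A/J ssRNA legs, and 2466.05 to 3153.21 in A/J-MyD88 deficient and 1745.53 to 2418.87 in A/J saline legs, with no overlap in either. Of the 8, Myl3, a slow myosin light chain, was called higher in both legs (2.81 ± 0.28 in ssRNA legs, adjusted p = 5.04e-05, and 1.502 ± 0.28 in saline legs, adjusted p = 0.00518), and Myh6 in ssRNA legs (0.75 ± 0.19). The part of slow fibres in the differences of Pdk4, and of Pdk2 and Ucp3 in ssRNA legs, was not tested. The legs of A/J-MyD88 deficient mice overlapped, with a Pdk4 difference of -0.09 ± 0.24. The response difference between these strains was 0.46 ± 0.34 (adjusted p = 0.449), so a larger strain difference in ssRNA legs than in saline legs was not shown. In A/JOlaHsd mice Pdk4 was 10.19 and 10.24 in ssRNA legs and 10.10, 10.43 and 10.69 in saline legs, which overlapped. The genes most like Pdk4 over the 12 arrays were Myl3 (0.94), Clec16a (0.93), Cnksr1 (0.93), Acaa1a (0.93) and Gabarapl1 (0.92).

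Pdk1, the isoform that hypoxia induces in many cells, was 5.99, 5.86 and 6.05 in A/J ssRNA legs, against 6.28, 6.21 and 6.26 in A/J saline legs. All ssRNA arrays lay below all saline arrays, but the difference of -0.28 ± 0.15 was not called (adjusted p = 0.207). Its arrays overlapped between legs in A/J-MyD88 deficient mice (-0.10 ± 0.15) and in A/JOlaHsd mice (-0.20 ± 0.17).

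Pdp1, the catalytic subunit of the calcium-stimulated phosphatase, was 7.31, 6.64 and 7.13 in A/J ssRNA legs, against 7.44, 6.86 and 7.40 in A/J saline legs. The legs overlapped, and the difference was -0.21 ± 0.25 (95% interval -0.74 to 0.32, adjusted p = 0.612). The second Pdp1 probe gave 0.00 ± 0.19 in the same comparison. In A/JOlaHsd mice Pdp1 was 8.07 and 8.09 in ssRNA legs, just below the 8.48, 8.30 and 8.31 of saline legs, with a difference of -0.28 ± 0.28 (adjusted p = 0.738). The second probe gave 0.44 ± 0.22 there, the other direction, with legs that overlapped (adjusted p = 0.361 over all probes). There 18.5% of all genes had arrays that did not overlap, 8.84% lower, and 1.9% were called. Of the list of 7 kinase and phosphatase genes tested, Pdpr, the regulatory subunit of the phosphatase, fell in A/J ssRNA legs to 8.94 ± 0.12, against 9.58 ± 0.10 in saline legs (SD, n = 3 each), a difference of -0.64 ± 0.18 (adjusted p = 0.0189, limma; -0.48 and adjusted p = 0.0988 with median centring). Pdp2, the other catalytic subunit, had a difference of 0.27 ± 0.14 (adjusted p = 0.195).

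Among the subunits of the complex, Dlat, the E2 acetyltransferase core, was lower in A/J ssRNA legs. It was 8.47, 8.17 and 8.16 there, against 8.92, 8.74 and 9.02 in A/J saline legs. The legs did not overlap, and the difference was -0.63 ± 0.16, 1.54-fold lower (adjusted p = 0.0107, limma). The call was lost without A/J saline array 3 (-0.56, adjusted p = 0.0553) and with median centring of the arrays (-0.45, adjusted p = 0.114). In A/J-MyD88 deficient mice Dlat was 8.66, 8.47 and 8.42 in ssRNA legs, against 8.51, 8.21 and 8.63 in saline legs, which overlapped (0.07 ± 0.16). The response difference between these strains was 0.69 ± 0.23 (adjusted p = 0.0664), and it was called, at 0.69 to 0.78, with each strain normalized alone, the authors' normalized values, the compared arrays alone and array weights. In A/JOlaHsd mice Dlat was 8.31 and 8.85 in ssRNA legs and 9.05, 8.70 and 8.79 in saline legs, which overlapped, with a difference of -0.27 ± 0.18 (adjusted p = 0.552).

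Pdha1, the E1 alpha subunit that the kinases phosphorylate, varied least over the 17 arrays with quantile normalization. It was 11.57, 11.49 and 11.67 in A/J ssRNA legs, against 11.92, 11.85 and 11.78 in A/J saline legs. The ssRNA arrays all lay below the saline arrays, and the difference of -0.28 ± 0.11 was not called (95% interval -0.51 to -0.04, adjusted p = 0.0893). It was called with array weights (-0.26, adjusted p = 0.0323) and without the filter on dim probes (adjusted p = 0.0485). Over the 17 arrays Pdha1 lay between 11.49 and 11.92.

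Pdhb, the E1 beta subunit, was read by 3 probes that gave different results. Its brightest probe was 9.21, 8.58 and 9.35 in A/J ssRNA legs, against 9.57, 8.79 and 9.65 in A/J saline legs, which overlapped (-0.29 ± 0.25, adjusted p = 0.458). The second probe was 6.14, 6.04 and 6.02 in A/J ssRNA legs, against 6.78, 6.36 and 6.44 in A/J saline legs, and the third was 7.08, 6.59 and 6.91, against 8.09, 7.15 and 7.90. On both of these probes the A/J legs did not overlap, and both were called lower in the fit over all probes, at -0.46 ± 0.13 (adjusted p = 0.0260) and -0.85 ± 0.21 (adjusted p = 0.00905). With the mean of the 3 probes, Pdhb was called lower in A/J ssRNA legs, at -0.53 (adjusted p = 0.0309). Between strains the probes disagreed in direction. In saline legs the third probe was 1.87 ± 0.21 higher in A/J than in A/JOlaHsd muscle, and the second had a difference of -0.33 ± 0.13. In ssRNA legs the second probe was 0.54 ± 0.13 higher in A/J-MyD88 deficient than in A/J muscle (adjusted p = 0.0334), and the third had a difference of -0.12 ± 0.21. In saline legs the third probe was called lower in A/J-MyD88 deficient than in A/J muscle, at -0.80 ± 0.21 with no overlap (adjusted p = 0.0429, limma over all probes). Its response in A/J minus that in A/JOlaHsd was -1.10 ± 0.31 and was called (adjusted p = 0.0489). The brightest and the second probe were called in neither of these comparisons. Which transcripts each probe reads is not given in the sources used here.

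**Figure D3:**
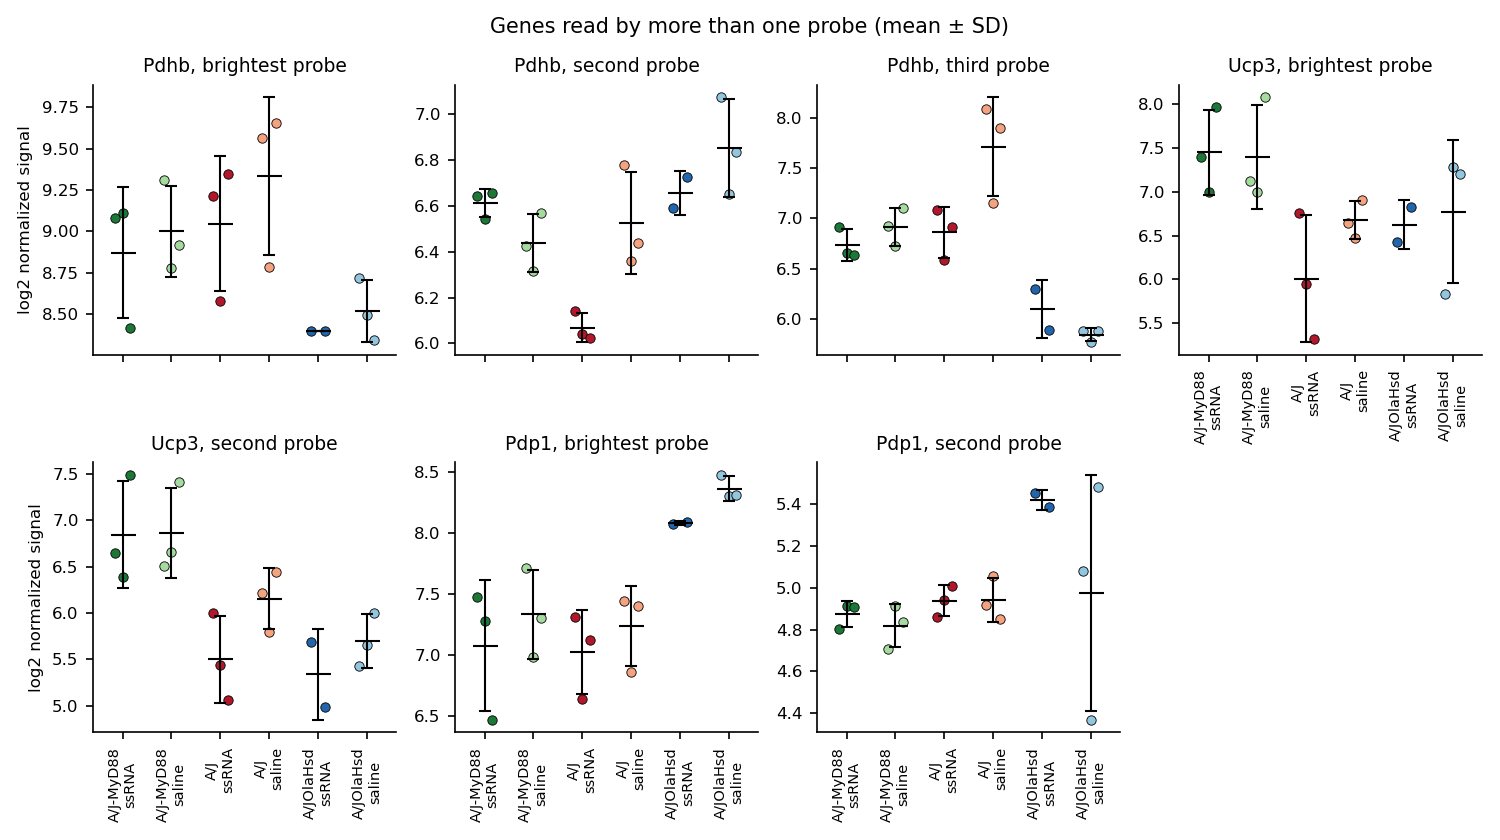
Log2 normalized signal on each array for the members with more than 1 detected probe, with the mean and SD of each group (bars); vertical axes differ between panels. The second and the third Pdhb probe separated the A/J legs and the brightest did not, and both Ucp3 probes lay higher in A/J-MyD88 deficient than in A/J ssRNA legs.

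Dld, the E3 subunit that the complex shares with other dehydrogenases, averaged 8.07 ± 0.18 in A/J ssRNA legs and 8.76 ± 0.35 in A/J saline legs (SD, n = 3 each), a difference of -0.69 ± 0.31 that was not called (adjusted p = 0.123). With the brightest probe of each gene, 0 of the 4 complex subunits tested were called higher and 1, Dlat, lower in A/J ssRNA legs. Of all genes, 12.4% were called higher and 10% lower there. The median was -0.46 over the 4 subunits and -0.05 over all genes. Pdhb counts as not called here, but its other probes were called lower (-0.46 and -0.85). The mean of its probes was called lower as well (-0.53, adjusted p = 0.0309, limma). In A/J-MyD88 deficient and A/JOlaHsd mice none of the 4 was called between legs, where 0% and 1.9% of all genes were called.

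Ucp3, a mitochondrial inner membrane carrier of muscle, was 6.76, 5.94 and 5.31 in A/J ssRNA legs, against 6.64, 6.47 and 6.90 in A/J saline legs. The legs overlapped through ssRNA array 1, and the difference of -0.67 ± 0.40 was not called (95% interval -1.52 to 0.19, adjusted p = 0.267). With array weights it was called, at -0.91 (adjusted p = 0.0436). Its second probe gave -0.65 ± 0.32 (adjusted p = 0.181). In A/J-MyD88 deficient mice Ucp3 was 7.39, 7.002 and 7.96 in ssRNA legs, against 7.12, 6.99 and 8.09 in saline legs, which overlapped (0.05 ± 0.40). In ssRNA legs all A/J-MyD88 deficient arrays lay above all A/J arrays, by 1.45 ± 0.40, 2.73-fold (adjusted p = 0.0469, limma). The second probe gave 1.34 ± 0.32 there (adjusted p = 0.0285 over all probes), and the first had an adjusted p of 0.0548 in that fit. The Ucp3 call was lost without any 1 of 5 of the 6 arrays, A/J ssRNA array 1 being the exception, at 1.10 to 1.67 with adjusted p-values of 0.0819 to 0.220, and without the filter on dim probes (adjusted p = 0.102). In saline legs Ucp3 was 0.73 ± 0.40 above A/J in A/J-MyD88 deficient muscle with no overlap, which was not called (adjusted p = 0.387), and 30.2% of all genes did not overlap there. In A/JOlaHsd mice Ucp3 was 6.43 and 6.82 in ssRNA legs and 5.83, 7.29 and 7.20 in saline legs. The genes most like Ucp3 over the 12 arrays were Ybx1 (0.92), Shisa4 (0.92), Abcd3 (0.90), Ccdc85b (0.89) and Babam1 (0.88).

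Pdk2, Pdk4 and Ucp3 were the members called between the ssRNA legs of A/J-MyD88 deficient and A/J muscle, and the 250 bases before their annotated starts are shown to set them side by side (RefSeq, GRCm38.p6, 5′ to 3′ on the gene's strand). The windows are chr11:95041372-95041621 on the minus strand for Pdk2, chr6:5496279-5496528 on the minus strand for Pdk4 and chr7:100472741-100472990 on the plus strand for Ucp3. Capitals mark the E-box CACGTG in Pdk2 and the nuclear receptor half-site AGGTCA in Ucp3, and the forkhead site TGTTTAC was searched as well, all on both strands.
Pdk2: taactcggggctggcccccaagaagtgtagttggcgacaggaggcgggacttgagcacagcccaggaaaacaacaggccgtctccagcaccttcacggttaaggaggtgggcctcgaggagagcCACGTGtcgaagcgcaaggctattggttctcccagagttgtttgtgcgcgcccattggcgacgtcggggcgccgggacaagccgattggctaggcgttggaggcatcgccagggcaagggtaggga
Pdk4: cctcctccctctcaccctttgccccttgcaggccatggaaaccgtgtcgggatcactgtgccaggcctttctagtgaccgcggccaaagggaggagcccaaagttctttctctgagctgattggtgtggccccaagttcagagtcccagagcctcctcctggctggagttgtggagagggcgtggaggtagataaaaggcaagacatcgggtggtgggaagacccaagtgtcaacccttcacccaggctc
Ucp3: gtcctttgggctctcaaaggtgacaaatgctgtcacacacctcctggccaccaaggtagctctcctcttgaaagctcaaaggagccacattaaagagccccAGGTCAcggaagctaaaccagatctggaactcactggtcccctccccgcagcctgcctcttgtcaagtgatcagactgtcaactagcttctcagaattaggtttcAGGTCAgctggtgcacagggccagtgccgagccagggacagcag
The Pdk2 window held 1 CACGTG, which starts 126 bases before the gene's start, and 6.02% of 32851 mouse promoters of this length held one. The Ucp3 window held 2 copies of AGGTCA, the nearer one starting 44 bases before the start, and 14.0% of those promoters held at least 1. TGTTTAC was in 3.17% of the promoters and in none of the 3 windows, and Pdk4 had no match to any of these letters. The motifs were picked after the sequences were seen, and a match is a description of the letters only. Of the 10 members, 9 had a promoter in the table, and the other member windows held none of these motifs.

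Saline legs differed widely between A/J and A/JOlaHsd muscle, where 47.2% of all genes were called, 22.3% higher and 24.9% lower. Of the 9 members, 4 were called higher in A/J and 1 lower. Pdk2 was 1.70 ± 0.30 higher (adjusted p = 0.000317, limma), Pdhb 0.82 ± 0.25 higher (adjusted p = 0.0138) and Pdk1 0.41 ± 0.15 higher (adjusted p = 0.0372). The second Pdhb probe gave -0.33 ± 0.13, the other direction, and the third 1.87 ± 0.21. Pdk3, counted among the 4, had an adjusted p of 0.0480 but was not above background in A/JOlaHsd saline legs. That call was lost without any 1 of the 6 arrays (adjusted p of 0.0687 to 0.137), with the compared arrays alone (adjusted p = 0.0833) and without the filter on dim probes (adjusted p = 0.0745). The A/J saline mean of Pdk3, 4.75, lay below the lowest detected signal of the A/JOlaHsd saline arrays (mean 4.79), so no difference is given. Pdp1 was 1.13 ± 0.25 lower in A/J (adjusted p = 0.00165), and its second probe gave -0.03 ± 0.19. With median centring the median of all genes moved to 0.76 in this comparison, and 7723 genes were called higher and 78 lower, against 2502 and 2801. Pdp1 then had a difference of 0.24 (adjusted p = 0.477), Pdk4 one of 0.85 (adjusted p = 0.00504) and Ucp3 one of 1.16 (adjusted p = 0.0110), against -0.49 and -0.10 for Pdk4 and Ucp3 with quantile normalization. The directions of Pdp1, Pdk4 and Ucp3 between these strains therefore depended on the scaling. With median centring the differences of Pdk2, Pdhb and Pdk1 were 3.07, 2.23 and 1.43, and Pdha1 (1.41, adjusted p = 3.87e-07) and Dlat (1.43, adjusted p = 6.12e-06) were called as well, against 0.15 and 0.04 with quantile normalization. The sizes of these strain differences therefore depended on the scaling too. Genes of mitochondrial content and macrophage markers moved with this comparison. Of 12 mitochondrial content genes 10 were called higher and 0 lower in A/J, and their sum was 31787 to 32759.9 in A/J saline legs, against 17128 to 20848.3 in those of A/JOlaHsd. Of 16 macrophage markers 0 were called higher and 9 lower, and their sum was 1806.84 to 3415.03 in A/J saline legs, against 6154.85 to 16037 in those of A/JOlaHsd. With median centring 12 of the 12 were called higher, and 3 of the 16 macrophage markers higher and 1 lower. Their part in the members' strain differences was not tested. The call of Pdhb was lost without A/J saline array 1 (0.70, adjusted p = 0.0583) or 3 (0.66, adjusted p = 0.0687), and that of Pdk1 without any 1 of 5 arrays (0.28 to 0.43, adjusted p of 0.0618 to 0.158), with the compared arrays alone (adjusted p = 0.0896) and with array weights (adjusted p = 0.0669).

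Genes of the pathways around the complex were called in both directions in A/J ssRNA legs, where 12.4% of all genes were called higher and 10% lower. The count of each list is to be read against those shares, and 3 of 9 or 3 of 15 called, beside 22.4% of all genes, is not a result about the list. Of 9 genes of pyruvate transport and use, 1 was called higher and 2 lower. Slc16a3, a lactate and pyruvate exporter, was 5.73 ± 0.26 in the ssRNA legs, against 7.19 ± 0.55 in the saline legs (SD, n = 3 each), a difference of -1.46 ± 0.28 (adjusted p = 0.00128, limma). Gpt2, the mitochondrial alanine transaminase, fell by 0.93 ± 0.19, and Me2, a mitochondrial malic enzyme, rose by 0.58 ± 0.14 but was detected on 1 of 3 A/J saline arrays. Ldha and Ldhb, which encode lactate dehydrogenase, had differences of -0.04 and -0.22 and were not called. Of 5 genes of lipoate and thiamine supply, the cofactors of the complex, none was called.

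The sister complexes use the same E3 subunit and cofactors as pyruvate dehydrogenase. Of 7 of their genes, 4 were called lower and 0 higher in A/J ssRNA legs, with a median of -0.47. These were Ogdh (-0.72 ± 0.18) and Dlst (-0.42 ± 0.11) of the 2-oxoglutarate dehydrogenase complex, Dbt (-0.64 ± 0.16), the E2 subunit of the branched-chain complex, and Bckdk (-0.65 ± 0.18), its kinase. With median centring 1 of the 7 stayed called, Ogdh, and the median was -0.30. Of 8 genes of acetyl-CoA and carnitine handling, 1 was called higher and 3 lower. Crat, carnitine acetyltransferase, was 9.09 ± 0.09 in the ssRNA legs, against 10.39 ± 0.46 in the saline legs (SD, n = 3 each), a difference of -1.30 ± 0.19 (adjusted p = 0.000146, limma). Acly, which makes acetyl-CoA in the cytosol, rose by 0.73 ± 0.13, and the arrays of Acacb overlapped despite its call (-0.54 ± 0.15). With median centring Crat and Acly stayed called and Acacb was not.

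**Figure D4:**
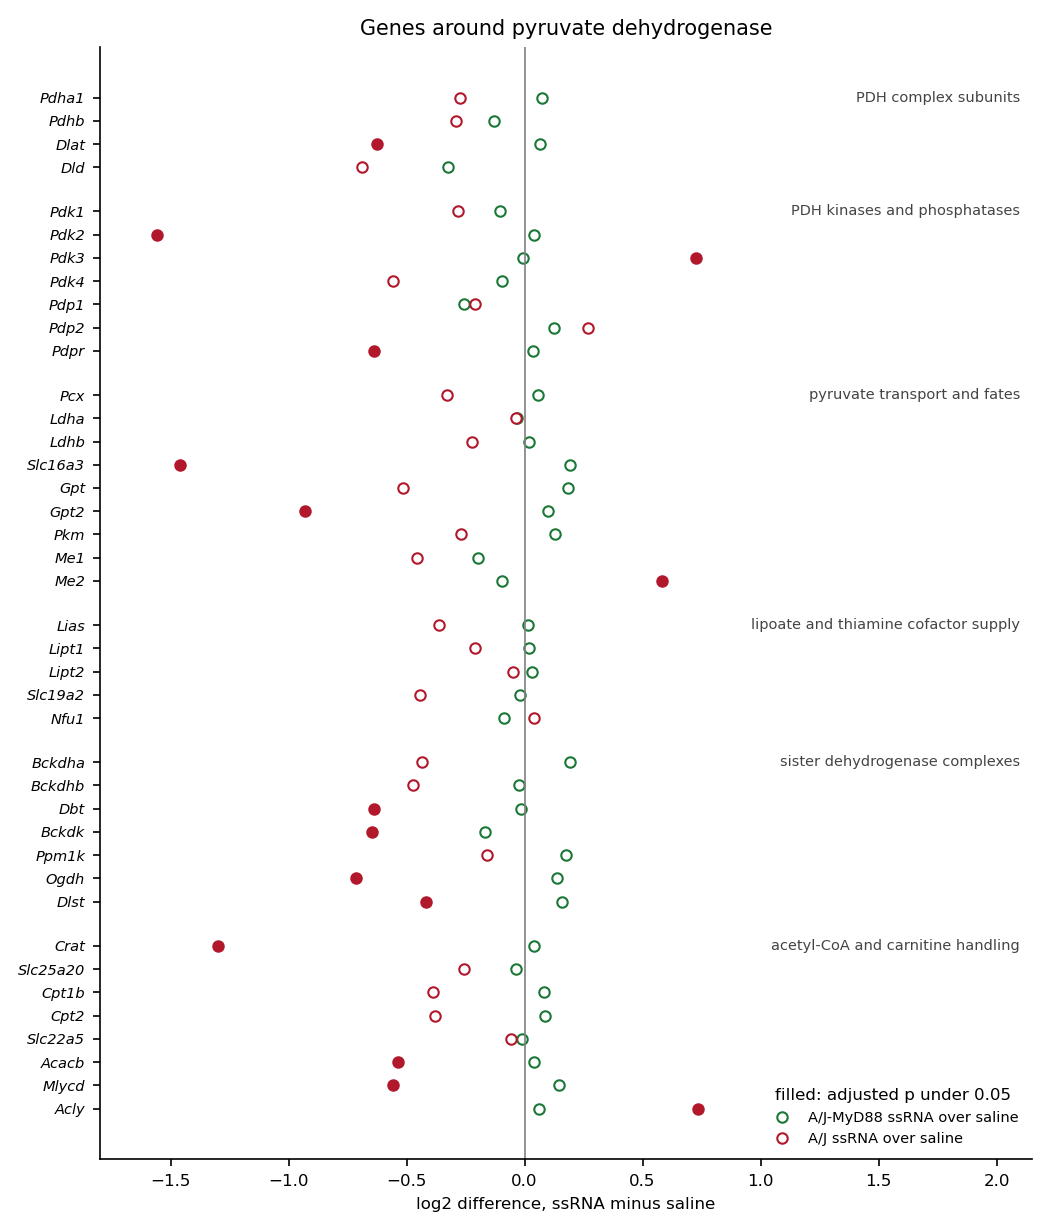
Log2 difference of ssRNA over saline legs for the tested genes of 6 pathway lists in A/J-MyD88 deficient (green) and A/J (red) muscle; filled points were called. All called points belong to A/J, where Pdk2, Slc16a3 and Crat lay furthest to the left and Acly and Pdk3 furthest to the right.

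Of 6 uncoupling proteins and relatives tested, 1 was called higher and 2 lower in A/J ssRNA legs. Slc25a5, an adenine nucleotide carrier, rose by 1.01 ± 0.12 (adjusted p = 1.98e-05, limma), and Slc25a4, the muscle isoform of that carrier, fell by 0.91 ± 0.20. Of 15 regulators that are known to act on Pdk4 or Ucp3, 3 were called lower in A/J ssRNA legs and 0 higher. They were the estrogen-related receptors Esrrb (-1.05 ± 0.17) and Esrrg (-0.52 ± 0.15) and the retinoid receptor Rxrg (-0.94 ± 0.18). Ppargc1a (-0.31 ± 0.14, adjusted p = 0.135) and Foxo1 (-0.20 ± 0.16, adjusted p = 0.417) were not called. Of 18 PPAR and fasting target genes, 2 were called higher and 7 lower. Angptl4, a lipase inhibitor, rose by 1.25 ± 0.29 and the lipid droplet coat gene Plin2 by 0.97 ± 0.24, whereas Fitm1, a lipid droplet gene of muscle, fell by 1.41 ± 0.26 and Plin5 by 0.85 ± 0.29. With median centring the counts were 3 higher and 1 lower among the PPAR and fasting targets, with Plin5 no longer called (-0.64, adjusted p = 0.111), and 2 higher and 2 lower among the regulators, with Esrrg no longer called (-0.28, adjusted p = 0.306).

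None of these genes was called between the legs of A/J-MyD88 deficient mice, where limma called 0 of 11233 genes, and 131 had an unadjusted p under 0.05. There the 9 members had differences of -0.26 to 0.07, 0 of them had arrays that did not overlap, and 8.86% of all genes did. The response difference between A/J-MyD88 deficient and A/J muscle was called for Slc16a3 (1.65 ± 0.39), Gpt2 (1.03 ± 0.27), Crat (1.34 ± 0.27), Ogdh (0.85 ± 0.25), Dlst (0.57 ± 0.16), Esrrb (1.20 ± 0.24), Rxrg (0.94 ± 0.25) and Fitm1 (1.48 ± 0.37), all positive, as for Pdk2. With median centring, which moved the median of all genes to -0.14 there, Ogdh (0.69), Dlst (0.40) and Rxrg (0.68) were no longer called. It was called with the opposite sign for Me2 (-0.68 ± 0.20), Acly (-0.67 ± 0.19) and Slc25a5 (-0.89 ± 0.16). In A/JOlaHsd muscle Me2 was the gene of these lists called between legs, at 0.67 ± 0.16 (adjusted p = 0.0432). That call was lost with median centring (0.16, adjusted p = 0.951) and with each strain normalized alone (0.23, adjusted p = 0.9999).

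In saline legs, where Pdk4 was higher in A/J-MyD88 deficient than in A/J muscle, Angptl4 was 2.21 ± 0.29 higher (adjusted p = 0.000601, limma), Me2 0.53 ± 0.14 and Slc25a5 0.43 ± 0.12 higher, and Esrrb 0.68 ± 0.17 lower in A/J-MyD88 deficient muscle. No other gene of the 18 PPAR and fasting targets was called there. In ssRNA legs, Fitm1 was 1.00 ± 0.26 higher, Crat 0.90 ± 0.19, Gpt2 0.74 ± 0.19 and Dlst 0.46 ± 0.11 higher in A/J-MyD88 deficient than in A/J muscle, and Slc25a5 was lower (-0.45 ± 0.12). Gpt2, Dlst and Fitm1 in ssRNA legs and Esrrb in saline legs were not called with median centring.

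Markers of some other cells moved with the same comparisons. Of 16 macrophage markers tested, 14 were called higher in A/J ssRNA legs than in A/J saline legs, with a median log2 difference of 2.62, and Itgam and Cd163 were not called. Their summed linear signal was 15678.1 to 20138.2 in A/J ssRNA legs, against 1806.84 to 3415.03 in A/J saline legs. In A/J-MyD88 deficient mice the sum was 10271 to 12262.9 in ssRNA legs and 10219.4 to 15493.9 in saline legs. In these bulk samples fewer muscle cells and less RNA per muscle cell cannot be told apart, and the part of macrophage RNA in the changes of Pdk2, Dlat and Pdk3 was not tested. The A/J-MyD88 deficient saline legs, whose macrophage sums all exceeded those of A/J saline legs, had a Pdk2 level of 7.94 to 8.82, against 8.15 to 9.16 in A/J saline legs. The A/JOlaHsd arrays, with macrophage sums of 6154.85 to 16037, had a Pdk2 level of 6.28 to 6.90. In saline legs 12 of the 16 markers were called higher in A/J-MyD88 deficient than in A/J muscle, and in ssRNA legs 6 were called lower. Pdk4 was higher in A/J-MyD88 deficient muscle in both comparisons, and the part of macrophage RNA in these differences was not tested. Each of the 16 was detected on at least 1 array of every A/J-MyD88 deficient and A/J group, other than Itgam, which was not detected on any saline array of either strain. Of 9 fibroblast markers, 6 were called higher in A/J ssRNA legs, and of 8 markers of myoblasts and regenerating fibres 5 were. Their sums were 8720.73 to 10042.7 in ssRNA legs and 4620.42 to 7340.54 in saline legs for fibroblasts, and 6628.09 to 8501.7 in ssRNA legs and 4796.8 to 5378.7 in saline legs for regenerating fibres. Of 8 endothelial markers, 1 was called higher and 2 lower in A/J ssRNA legs, with a median of -0.15. The 2 lower ones, Tie1 and Gpihbp1, were not called with median centring. Of 4 adipocyte markers, 0 were called there.

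**Figure D5:**
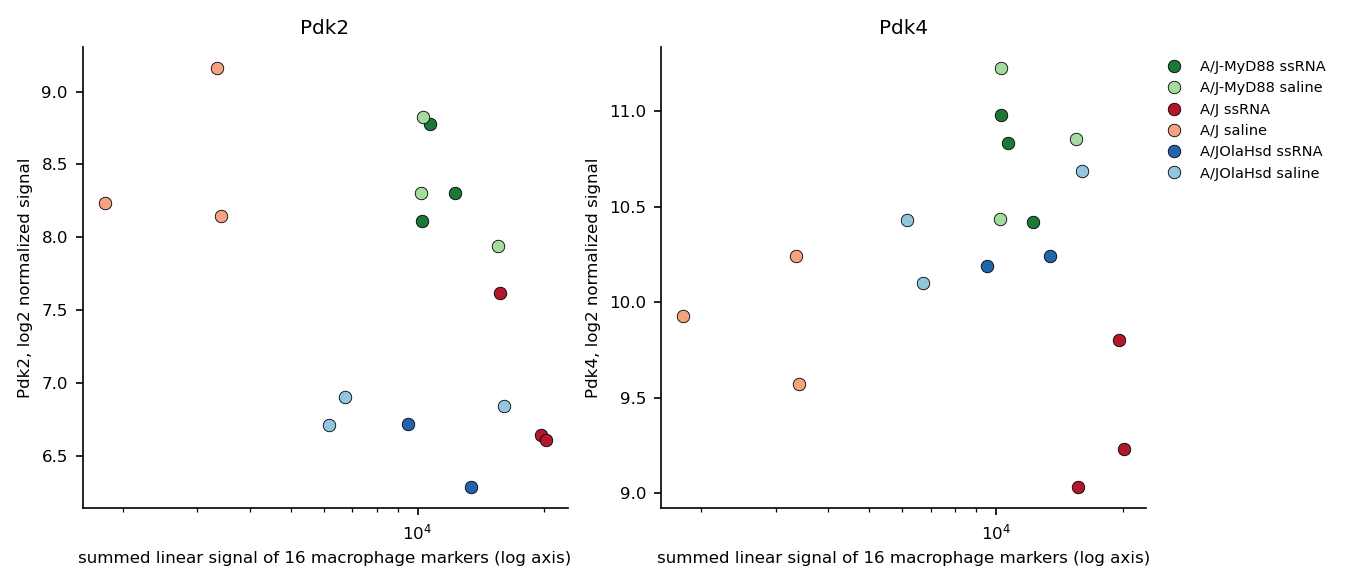
Log2 normalized signal of Pdk2 (left) and Pdk4 (right) on each array against the summed linear signal of 16 macrophage markers (log axis), coloured by group. A/J saline arrays lay lowest in macrophage signal. A/J ssRNA arrays lay above all others except 1 A/JOlaHsd saline array, at 16037, which exceeded the lowest of them. A/J-MyD88 deficient arrays of both legs lay between the A/J legs with Pdk2 at 7.94 to 8.82. A/JOlaHsd arrays lay at 6154.85 to 16037 with Pdk2 at 6.28 to 6.90.

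General muscle and mitochondrial genes were set beside the members as well. Of 12 genes of mitochondrial content, 2 were called lower in A/J ssRNA legs, Uqcrc1 (-0.61 ± 0.12) and Timm44 (-0.57 ± 0.14), and 0 higher. The median was -0.29 over the 12 and -0.29 over the 9 members. With median centring neither gene was called. The summed signal of the 12 was 26339.1 to 26578.3 in A/J ssRNA legs, against 31787 to 32759.9 in A/J saline legs, with no overlap. In A/J-MyD88 deficient mice it was 29031.2 to 30841.2 in ssRNA legs and 26828.6 to 28708.2 in saline legs, also with no overlap but in the other direction. Cs, citrate synthase, had a difference of -0.38 ± 0.18 in A/J (adjusted p = 0.144) and was not called. Of 8 slow fibre markers, 1 was called higher in A/J ssRNA legs, Tnni1 (1.15 ± 0.28), and 2 lower, Myl3 (-1.25 ± 0.28) and Myh6 (-0.92 ± 0.19), with sums of 1718.43 to 3244.95 in ssRNA legs and 1745.53 to 2418.87 in saline legs, which overlapped. Between A/J-MyD88 deficient and A/J muscle, Uqcrc1 and Timm44 had response differences of 0.83 and 0.76 that were called. In ssRNA legs they were called 0.55 and 0.64 higher in A/J-MyD88 deficient muscle. In both comparisons these were 2 of the 12 called higher and 0 lower, beside 3.34% and 2.64% of all genes called higher. With median centring neither gene was called in either. The part of mitochondrial content in the differences of Dlat and Pdk2 was not tested.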

How the data were processed

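The deposited probe intensities were exported by the authors from GenomeStudio without normalization, per the submitters' processing notes and the file headers, with a detection p-value deposited beside each intensity (steps of 1 in 936). A second deposited intensity table, normalized by the authors within each strain, served as an alternative. In R 4.3.3 with limma 3.58.1, 17 arrays were background-corrected and quantile-normalized with neqc (offset 16). A probe was kept where its detection p was under 0.05 on 3 or more arrays, which left 20825 of 45281. Of all probes, 34885 had 1 symbol, 18 several and 10378 none. Symbols came from the platform annotation, and 34807 matched the GRCm38.p6 gene table by Entrez ID. The brightest probe stood for each of 11233 genes. A mean per group was fitted to log2 values (lmFit, eBayes, 11 residual and 5.01 prior degrees of freedom), with two-sided p-values adjusted by Benjamini and Hochberg and called under 0.05. The fit was also run on simulated data, with noise drawn independently for each array. That simulation did not hold the shared deviation of same-numbered legs given below, and no result here rests on it. The number of arrays limits the precision.

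Same-numbered legs deviated together (correlations of deviations 0.40, 0.44 and 0.14 in A/J and 0.47, 0.17 and 0.17 in A/J-MyD88 deficient mice, -0.13 and -0.11 in A/JOlaHsd mice), so the numbers were taken to pair the legs in A/J-MyD88 deficient and A/J mice. Legs of different numbers gave -0.49 to 0.17 in A/J, which exceeds 1 of the matched values, and -0.31 to 0.09 in A/J-MyD88 deficient mice. With 2 ssRNA arrays, the A/JOlaHsd deviations mirror each other and tell little. This pairing rests on the correlations, as the labels give only the number. The main fit did not use it, and the alternative with the replicate number as a block paired the legs by number in A/JOlaHsd mice as well. The members, the pathway and marker lists and the tests were chosen with earlier results of these data known. All members are named, and of each list its counts, at most 4 called genes by size per comparison and a few others. Genes of the lists with no detected or no listed probe were not analysed here. Alternatives changed the arrays, the normalization, the background correction, the filter, the probe for a gene, the pairing and the weights of arrays, and left out each array in turn.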

Additional observations from a re-analysis of the deposited data

Results flagged for a closer look

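The response of Pdk2 to ssRNA differed between strains in the test of the difference itself. It was 0.04 ± 0.30 in A/J-MyD88 deficient muscle and -1.56 ± 0.30 in A/J muscle, and the difference of these responses was 1.60 ± 0.43 (adjusted p = 0.0264, limma). The comparison called 10.2% of all genes. The Pdk2 call was lost in 6 of 12 fits that left out 1 array (adjusted p up to 0.0842, limma) and in 2 of 11 other alternatives. The ssRNA arrays lay below the saline arrays in A/J muscle, and the legs overlapped in A/J-MyD88 deficient muscle. Groups of 3 or fewer arrays were not searched for a lone distant array.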

How the results depend on the processing

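Of 1232 values of the members under the alternatives, 1148 kept their side of the threshold with no called value changing sign, 52 lost a call, 29 gained one and 3 reversed. Of the values, 73 changed sign while not called, and these are counted as kept. The reversals were those of Pdk4 (0.85), Pdp1 (0.24) and Ucp3 (1.16) between A/J and A/JOlaHsd saline legs with median centring, the cause of which was not tested. In A/J, the calls of Pdk2 and Pdk3 held under every alternative except the fit with the array without signal, where the adjusted p was 0.133 and 0.108. In that fit every call of a member was lost except that of Pdk2 in saline legs of A/J over A/JOlaHsd. Some counts of called genes moved by over 1.5 times, and these are given here. With all 18 arrays, the array without signal included, 220 genes were called in A/J legs (2518 without it), 28 in A/JOlaHsd legs (213), 25 and 5 for the response of A/J-MyD88 deficient minus A/J (1144) and of A/J minus A/JOlaHsd (850), 822 in saline legs of A/J over A/JOlaHsd (5303), and 15 and 18 in saline (604) and ssRNA (636) legs of A/J-MyD88 deficient over A/J. Between A/JOlaHsd legs the count was 0 with each strain normalized alone, the authors' normalized values, median centring or the compared arrays alone, 1 with array weights and 435 without the filter on dim probes. For the response of A/J-MyD88 deficient minus A/J it was 2090, 2131, 1764, 2174 and 2930 with each strain alone, the authors' values, median centring, the compared arrays and array weights. For the response of A/J minus A/JOlaHsd it was 1358, 1394 and 1754 with the same normalizations in that order, and 187 and 107 with the compared arrays and array weights. In the saline and ssRNA legs of A/J-MyD88 deficient over A/J it was 972 and 1247 with median centring, 1036 and 1259 with the compared arrays, and 1780 and 2477 with array weights, which also gave 4491 in A/J legs. Where limma called 0 genes between A/JOlaHsd legs, 510, 452, 730 and 253 had an unadjusted p under 0.05 with each strain normalized alone, the authors' values, median centring and the compared arrays. Leaving out 1 array gave 1537 (without A/J saline array 3) to 2399 calls in A/J legs, 287 to 525 in A/JOlaHsd legs, 582 to 1222 and 306 to 1323 for the response differences, 4561 to 5504 in saline legs of A/J over A/JOlaHsd, 180 to 528 and 186 to 390 in saline and ssRNA legs of A/J-MyD88 deficient over A/J, and 0 in every case for A/J-MyD88 deficient legs. The replicate block, which paired A/JOlaHsd legs by number too, gave 2595, 0, 226, 1145 and 1127 calls in A/J, A/J-MyD88 deficient and A/JOlaHsd legs and the response differences. Of the members' calls it changed that of Pdk4 in A/J alone. The pathway lists under other scalings were computed after the data were seen, and the calls lost there were lost with median centring, Me2 in A/JOlaHsd legs also with each strain normalized alone. Signal in A/JOlaHsd, at 37.4 to 50.2 per array, and 2 ssRNA arrays limit what that strain can show.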
